A study of Drosophila melanogaster with 8 samples.

Results

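The transcripts described here belong to genes for the kinases and phosphatases that act on the clock proteins of Drosophila: dco (also written dbt), sgg, CkIalpha, CkIIalpha, CkIIbeta, nmo, mts, tws and wdb. Members were taken as all probe sets whose single gene symbol is one of these 9 names. The rule found 4 of the 11982 genes that have a named probe set, with 5 of the 18769 probe sets tested, 1 each for dco, CkIalpha and tws and 2 for wdb. No probe set was listed with sgg, CkIIalpha, CkIIbeta, nmo or mts as its single symbol, and those 5 genes were not analysed here. The platform annotation used for names does not cover 4903 of the probe sets in the table, and probe sets for these 5 genes may be among them.

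The study compared transcripts of fly heads with and without a light pulse in the early night. All flies were of the wild-type strain Canton-S, 3 to 5 days old, kept at 25 °C and held for 4 days with 12 h of light per day. The pulsed group was given saturating light for 30 min at ZT 15, counted in hours from lights on (zeitgeber time), when it had been dark for 3 h, and was frozen 1 h later, at ZT 16.5. The unpulsed group was sampled at ZT 16.5 without a pulse. Each group has 4 Affymetrix arrays of total RNA from heads, and nothing in the labels says that separate groups of flies were used, so p-values measure only the spread between these samples, which may be technical.

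In the fly clock, the period and timeless proteins accumulate in the evening, enter the nucleus at night and repress their own transcription. Kinases time this cycle: dco encodes Doubletime, a casein kinase 1 that marks period for degradation, CkIalpha encodes another casein kinase 1 that acts on period, sgg encodes the glycogen synthase kinase 3 homologue that acts on timeless, casein kinase 2 (CkIIalpha and CkIIbeta) favours nuclear entry, and nmo encodes a kinase of period. Protein phosphatase 2A opposes them, with mts as its catalytic subunit and tws and wdb as regulatory subunits that direct it to substrates such as period. Light acts on this system through cryptochrome and the loss of timeless protein. The arrays measured transcripts, and neither protein, phosphorylation nor kinase activity.

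The median over probe sets was 2.95 to 3.07 log2 units per array, and precision is limited by having 4 arrays a group. Pulsed replicate 2 stood apart, with correlations of 0.985 to 0.988 with the other arrays across probe sets. The yolk protein gene Yp1 was at 4.82 to 5.21 on pulsed replicates 3 and 4 and unpulsed replicate 1, and at 11.3 to 12.7 on the other 5 arrays. Markers of photoreceptors (3 of 5 measured, mean values 10.8 to 14.8) and glia (4 of 5, 9.12 to 13.6) were bright. Of 4 measured neuron markers, elav and nSyb had means of 9.09 and 9.59 log2 units, while para, at 3.35, and the brightest brp probe set, at 4.02, were close to the array medians. Heads also hold fat body, muscle and blood cells, and in RNA of the whole tissue fewer cells of a type and less RNA per cell cannot be told apart.

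The 2 casein kinase genes measured, dco and CkIalpha, did not pass the test in either direction. dco (probe set 1624447_s_at) was at 8.96, 8.83, 9.10 and 8.97 log2 units on pulsed replicates 1 to 4. It was at 9.13, 9.08, 8.81 and 8.82 on unpulsed replicates 1 to 4. Unpulsed replicate 1 was the highest of the 8 arrays and unpulsed replicates 3 and 4 were the lowest, so all pulsed arrays lay within the unpulsed range. The means were 8.96 ± 0.11 (SD, n = 4) in pulsed and 8.96 ± 0.17 (SD, n = 4) in unpulsed heads. The log2 difference, pulsed minus unpulsed, was 0.0036 (SE 0.095), with a 95% interval of -0.22 to 0.23, which spans 0.858-fold to 1.17-fold (limma, unadjusted p = 0.971). Its sign was not settled, since it was negative in 8 of 18 refits, among them those with quantile normalization (-0.0091) and median-centred arrays (-0.0095).

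CkIalpha (probe set 1623403_s_at) was at 9.57, 9.61, 9.91 and 10.02 log2 units on pulsed replicates 1 to 4. On unpulsed replicates 1 to 4 it was at 9.90, 9.95, 9.84 and 9.81. Pulsed arrays lay on both sides, with replicates 1 and 2 below every unpulsed array and replicate 4 above every one. The mean was 9.78 ± 0.22 (SD, n = 4) in pulsed and 9.87 ± 0.062 (SD, n = 4) in unpulsed heads. The log2 difference was -0.096 (SE 0.11), with a 95% interval of -0.35 to 0.16, which spans 0.785-fold to 1.12-fold (limma, unadjusted p = 0.400). The gap between the means was less than the SD among pulsed arrays.

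The 2 genes for regulatory subunits of protein phosphatase 2A, tws and wdb, had lower means in pulsed heads but did not pass the test. tws encodes the subunit of the B55 class, and its probe set (1633501_s_at) was at 8.45, 8.19, 8.81 and 8.61 log2 units on pulsed replicates 1 to 4. It was at 8.82, 8.74, 8.45 and 8.48 on unpulsed replicates 1 to 4. Pulsed replicate 2 was the lowest array, and the other 3 pulsed arrays lay within the unpulsed range. The mean was 8.52 ± 0.26 (SD, n = 4) against 8.62 ± 0.19 (SD, n = 4). The log2 difference was -0.10 (SE 0.15), with a 95% interval of -0.46 to 0.25, which spans 0.729-fold to 1.19-fold (limma, unadjusted p = 0.511). Without pulsed replicate 2, the array that stood apart, it was 0.0047.

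wdb encodes the subunit of the B56 class called Widerborst. Its brighter probe set (1626385_s_at) was at 7.22, 7.14, 7.33 and 7.29 log2 units on pulsed replicates 1 to 4 and at 7.36, 7.84, 7.32 and 7.11 on unpulsed replicates 1 to 4. Unpulsed replicate 2 was the highest array, 0.48 log2 units above the next, and the pulsed arrays lay within the range of the other 3 unpulsed ones. The mean was 7.25 ± 0.084 (SD, n = 4) in pulsed and 7.41 ± 0.31 (SD, n = 4) in unpulsed heads. The log2 difference was -0.16 (SE 0.15), with a 95% interval of -0.52 to 0.19, which spans 0.699-fold to 1.14-fold (limma, unadjusted p = 0.312). Without unpulsed replicate 2 it was -0.018.

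The other wdb probe set (1629187_s_at) was dim, with a mean of 3.89 log2 units over the 8 arrays, at the 55.7th percentile of all probe sets tested. It was at 4.82, 3.48, 3.75 and 3.69 on pulsed replicates 1 to 4 and at 3.76, 4.16, 3.83 and 3.63 on unpulsed replicates 1 to 4. Pulsed replicate 1 was the highest array and pulsed replicate 2 the lowest. The log2 difference was 0.089 (SE 0.30, 95% interval -0.62 to 0.80, limma, unadjusted p = 0.775), and it was -0.21 without pulsed replicate 1. The main differences of the wdb probe sets thus had opposite signs. The difference between them, brighter minus dimmer, was -0.25 log2 units (exact two-sided permutation test over 70 arrangements, p = 0.771, 1 pair tested), and 0.051 without pulsed replicate 1 (exact p = 0.457). On unpulsed replicate 2 the brighter wdb probe set was at its highest and the dimmer one at its second highest value.

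**Figure D1:**
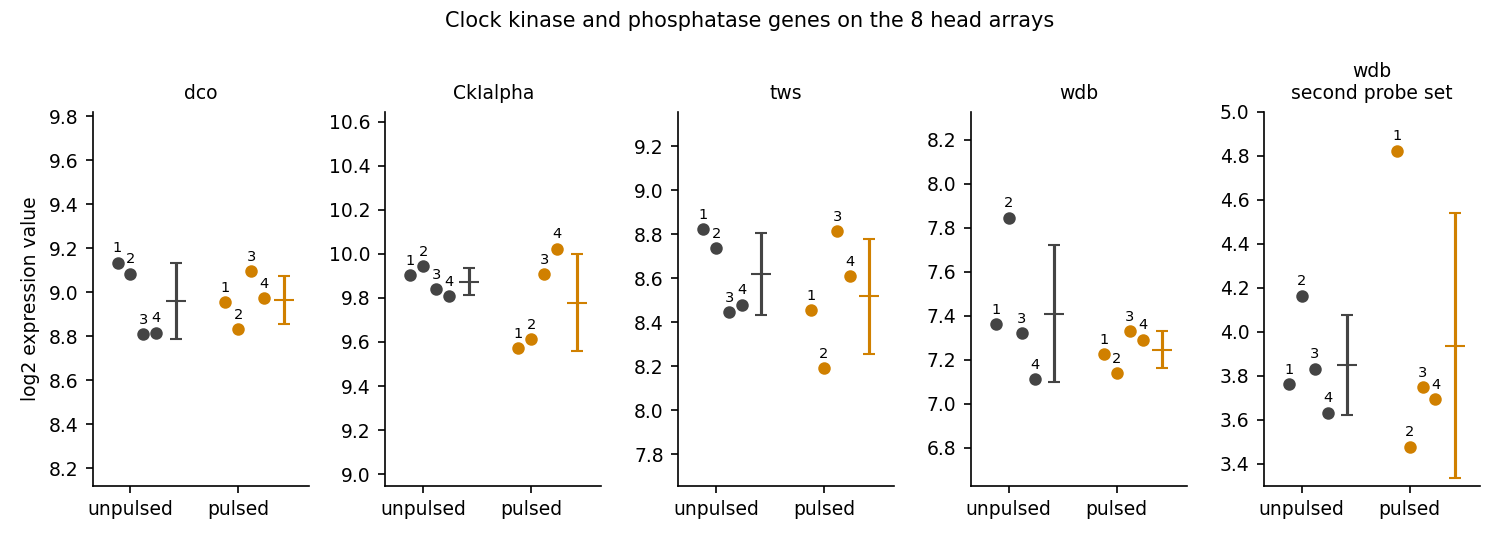
Log2 expression value (vertical axis, the same span in each panel) of the 5 probe sets on the 4 unpulsed and 4 pulsed head arrays, with replicate numbers beside the points and mean ± SD to the right of each group. In every panel the groups overlap, and single arrays stand out for wdb: unpulsed replicate 2 at 7.84 and, for the second probe set, pulsed replicate 1 at 4.82.

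The probe sets of dco, CkIalpha and tws were bright, with mean values at the 89.6th, 93.6th and 87.3rd percentile of all probe sets tested, and the brighter one of wdb was at the 77.5th. Brightness also depends on the probes, so these positions do not rank the genes' transcripts. All 5 identifiers end in _s_at, which on Affymetrix arrays marks probe sets that can match more than 1 transcript, at times of different genes.

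The test gave 0 of 5 member probe sets past an adjusted p of 0.05 (limma, adjusted p = 1.00 for each), against 0 of 18769, or 0%, of all probe sets. With no adjustment, 0 of 5 passed a p of 0.05, against 902 of all probe sets, or 4.81%. The groups of arrays overlapped for all 5, and failed to overlap for 2.56% of all probe sets. Of the 4 genes, 3 had a mean below the unpulsed one, with a median log2 difference of -0.10. Over all probe sets tested, 58.6% were below and the median was -0.0031. Those include many dim probe sets, unlike the 4 genes. With a filter at the 40th percentile of mean value, 53.9% were below, the median was -0.0075 and 7.32% had an unadjusted p under 0.05 (limma). A p that misses the threshold does not show that the levels were the same, and the intervals give the sizes of change that these arrays leave possible. The narrowest was that of dco and the widest that of the dim wdb probe set.

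**Figure D2:**
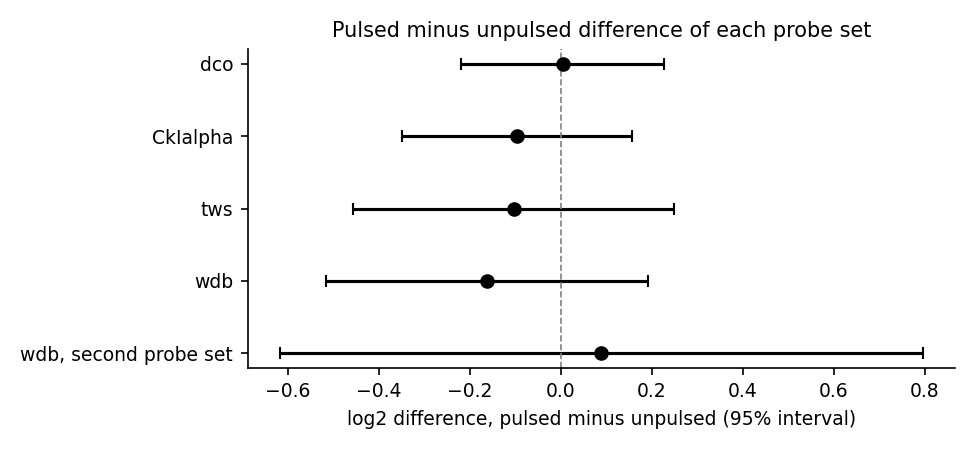
Log2 difference, pulsed minus unpulsed (horizontal axis), of each of the 5 probe sets, as the estimate (point) with limma's 95% interval (bar) over 4 pulsed and 4 unpulsed arrays. All 5 intervals include 0 (dashed line), and that of the second wdb probe set, from -0.62 to 0.80, is the widest.

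Weighting the arrays changed the result for wdb. With limma's array weights, its brighter probe set had a log2 difference of -0.49 and passed (limma adjusted p = 0.0218, where the 18 refits span 0.0218 to 1.00). Those weights rested mostly on unpulsed replicate 2 (weight 10.1), the array on which wdb was highest, and on pulsed replicate 3 (6.81). In that fit 2936 probe sets passed, or 15.6% of all, and 1 of the 5 members did. The dimmer wdb probe set had -0.21 there and did not pass (adjusted p = 0.482). The other genes did not pass either, with adjusted p = 0.435 for CkIalpha, 0.695 for dco and 0.896 for tws in limma's fit with array weights.

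**Figure D3:**
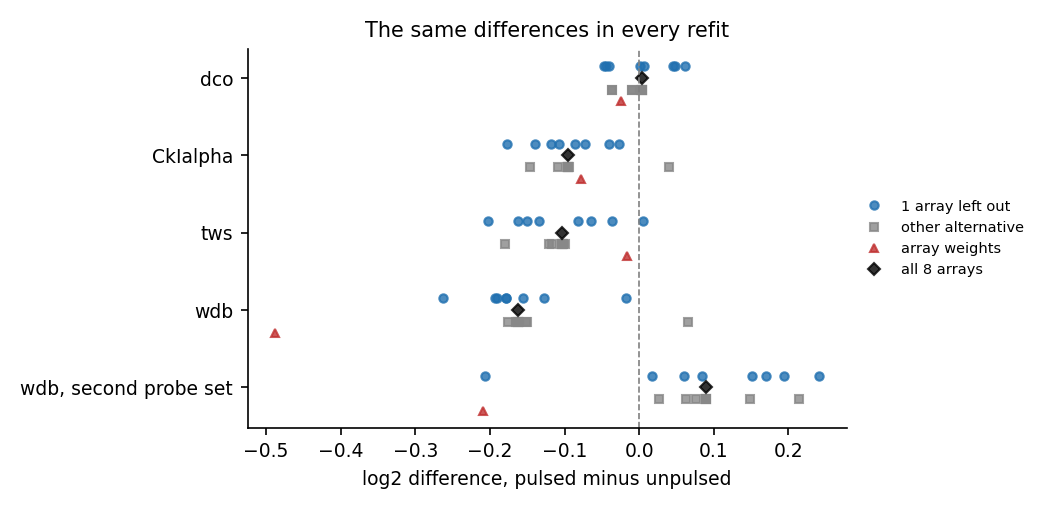
Log2 difference, pulsed minus unpulsed (horizontal axis), of each probe set with all 8 arrays (black diamonds), with 1 array left out (blue circles), with array weights (red triangles) and under the other alternatives (grey squares). The wdb value with array weights, -0.49, lies apart from its values without single arrays, which ran from -0.26 to -0.018.

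Within the groups, dco and tws followed each other most closely of the members. With each group's mean taken off, their deviations over the 8 arrays had a Pearson correlation of 0.914, and 0.935 without pulsed replicate 2. This is a description of arrays that share their RNA and their scaling, and no test was made of it. The other 5 pairs of members ran from 0.437, for CkIalpha and wdb, to 0.708, for CkIalpha and tws. Among 8194 or 8195 candidate probe sets per member, those of named genes with a mean above the median, the one most like dco by this measure was that of Crtc, a coactivator of the transcription factor CREB (0.992). For tws it was EndoB, an endophilin gene (0.992), and for CkIalpha it was larp, an RNA-binding protein gene (0.972). For wdb it was Nepl3, a neprilysin-like gene (0.968), whose mean of 3.23 log2 units was close to the array medians. Without pulsed replicate 2 these 4 values lay between 0.967 and 0.991. wdb and Nepl3 were both highest on unpulsed replicate 2 (7.84 and 3.56 log2 units), and Nepl3 was at 3.14 to 3.16 on the pulsed arrays. Their likeness without unpulsed replicate 2 was not computed. The highest of so many correlations over 8 arrays is high by selection.

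tws, dco and CkIalpha, like some related genes and markers, were higher on the arrays with little yolk protein transcript than on those with much. Unpulsed replicate 2 was the exception. On the 3 arrays with Yp1 at 4.82 to 5.21, pulsed replicates 3 and 4 and unpulsed replicate 1, tws was at 8.81, 8.61 and 8.82 log2 units. On the 5 arrays with high Yp1 it ran from 8.19 to 8.74. The ranges overlap through unpulsed replicate 2 alone (8.74), since the other 4 arrays with high Yp1 had tws at 8.48 or less. dco was at 9.10, 8.97 and 9.13 on the former arrays, at 9.08 on unpulsed replicate 2 and at 8.81 to 8.96 on the other 4. CkIalpha was at 9.91, 10.02 and 9.90 on the former, at 9.95 on unpulsed replicate 2 and at 9.57 to 9.84 on the other 4. For wdb the order was less clear, with 7.33, 7.29 and 7.36 on the former, 7.84 on unpulsed replicate 2 and 7.11 to 7.32 on the other 4. The order was not particular to the members. The neuron marker elav, the muscle marker up and gish, a casein kinase relative, had it too. elav was at 9.16, 9.09 and 9.49 on the former, at 9.49 on unpulsed replicate 2 and at 8.68 to 8.98 on the other 4. The glia marker repo and the photoreceptor marker trp did not have it. dco and tws also followed each other over the arrays (0.914), so the genes are not separate observations. The order was seen in the data and not tested, and how many of all probe sets share it was not counted. With the Yp1 level as a covariate the pulsed minus unpulsed log2 differences were -0.18 for tws, -0.15 for CkIalpha, -0.16 for wdb and -0.036 for dco, and 0 of 5 member probe sets passed (limma, lowest adjusted p = 0.934). Fat body and yolk markers as a whole (5 of 5 measured) had summed values of 33.4 to 52.5 in pulsed and 32.6 to 53.1 in unpulsed heads. Of the fat body genes among them, Fbp1 had a low mean of 2.47 log2 units and Lsp2 a high one of 14.7. What the yolk signal shares with the kinase and phosphatase levels was not tested.

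**Figure D4:**
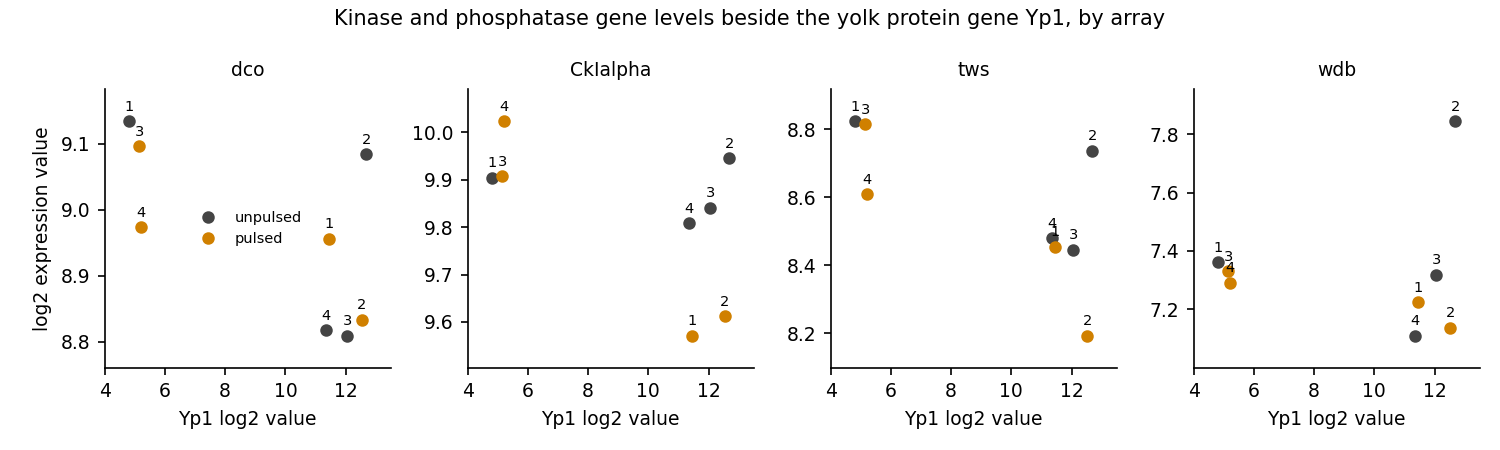
Log2 value of dco, CkIalpha, tws and wdb (vertical axes, scaled per panel) against the log2 value of the yolk protein gene Yp1 (horizontal axis) on the 4 unpulsed (grey) and 4 pulsed (orange) arrays, with replicate numbers. The 3 arrays at low Yp1 hold tws at 8.61 to 8.82, and of the 5 at high Yp1 only unpulsed replicate 2 reaches that range.

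One of the arrays' controls for RNA integrity differed between the groups. The 3′ minus 5′ log2 difference of the array's GAPDH control was 0.805, 0.806, 0.889 and 0.928 on pulsed replicates 1 to 4, all below the unpulsed values of 0.977, 1.09, 1.06 and 0.999. The mean of 3 such controls, which include GAPDH, was lower in pulsed heads but overlapped, at 1.66, 1.63, 1.64 and 1.79 on pulsed and 1.77, 1.97, 2.01 and 1.79 on unpulsed replicates 1 to 4. With that mean as a covariate, the log2 differences of CkIalpha (0.040) and wdb (0.065) turned positive, that of dco turned negative (-0.037) and that of tws was -0.12. The median of the 4 genes was then 0.0018, against -0.10 without the covariate. Over all probe sets the share below 0 went from 58.6% to 35.4% and the median from -0.0031 to 0.0065. Since the covariate was mostly lower in pulsed heads, its part and that of the pulse cannot be fully told apart. None of the 4 genes passed in that fit (limma, adjusted p = 0.994 each).

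Genes related to the members did not pass either. Among other phosphatase genes, subunits and partners of the 2A class and catalytic subunits of phosphatase 1 and its relatives, 10 of 12 listed genes were measured. Of these, 5 were above and 5 below the unpulsed mean, with a median log2 difference of 0.012, and 0 passed. The smallest unadjusted p belonged to Ptpa, an activator of phosphatase 2A, at 0.15 (SE 0.067), Pp1alpha-96A, a catalytic subunit of phosphatase 1, at 0.20 (SE 0.13), and CG4733, at 0.27 (SE 0.19).

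Among relatives of casein kinases 1 and 2, 10 of 11 listed genes were measured and 0 passed, with a median log2 difference of -0.0044. Of these, 6 had mean values under 4 log2 units, against array medians of 2.95 to 3.07, among them CkIIbeta2, a relative of CkIIbeta, at 2.10. The 3 with the smallest unadjusted p were Asator, a tau-tubulin kinase relative, at -0.29 (SE 0.13), CkIIalpha-i1, which encodes a protein that interacts with CkIIalpha, at -0.062 (SE 0.032), and Nopp140, a nucleolar protein gene, at -0.14 (SE 0.099). CkIIalpha and CkIIbeta themselves were not analysed here.

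Of other kinases and partners of clock proteins, 4 of 8 listed genes were measured and 0 passed, with a median log2 difference of -0.19. S6kII, a ribosomal S6 kinase gene, was at -0.28 (SE 0.13) and Hipk, a homeodomain-interacting kinase gene, at -0.37 (SE 0.25). Bdbt, whose protein binds Doubletime, was at -0.090 (SE 0.12). Its values were 7.64 ± 0.14 (SD, n = 4) in pulsed and 7.73 ± 0.23 (SD, n = 4) in unpulsed heads, so the kinase gene dco and its partner both differed by less than the spread between arrays.

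Clock loop genes, among them per and tim, whose proteins these enzymes act on, did not pass the test over all probe sets either. Of 8 clock loop genes, 7 were below the unpulsed mean, with a median log2 difference of -0.20, and 0 passed. These counts use the brightest probe set of each gene. Over all 10 probe sets of the 8 genes, an unadjusted p under 0.05 was found for 3, those of per and vri and the second of cwo, all lower, against 2.41% of all probe sets lower at that threshold. per, whose protein is the substrate of Doubletime, was at -0.49 (SE 0.12, limma adjusted p = 0.805) and vri at -0.31 (SE 0.090, adjusted p = 0.870). The difference between per and its kinase gene dco in this respect was not tested. The second cwo probe set, with a mean of 4.98 log2 units, was at -0.45 (SE 0.15, unadjusted p = 0.0195, limma adjusted p = 0.957), and the brighter one, with a mean of 9.27, was at -0.30. The tim probe sets had opposite signs, with the brighter one (mean 11.03) at -0.22 and the second (mean 8.62) at 0.12. The other 4 genes were Pdp1 at -0.17, cyc at -0.10, Clk, with a low mean of 3.69, at -0.064 and cry at 0.11.

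Among markers of glia, cells that also hold a clock, 1 of 4 measured had an unadjusted p under 0.05 (limma), against 4.81% of all probe sets. None of the measured markers of neurons, photoreceptors, fat body and yolk, muscle and haemocytes did. The 4 measured glia markers had summed log2 values of 42.42 to 42.86 in pulsed and 42.87 to 43.19 in unpulsed heads. The sums thus did not overlap, by a narrow margin. Most of this came from nrv2, a sodium pump subunit gene, at -0.37 (SE 0.12, unadjusted p = 0.0160, limma adjusted p = 0.920). Its groups of arrays did not overlap, which held for 2.56% of all probe sets. The other 3 markers lay between -0.044 and 0.015 log2 units. The sums overlapped for markers of neurons (25.3 to 26.2 in pulsed, 24.9 to 27.6 in unpulsed heads), photoreceptors (38.4 to 38.9 and 38.3 to 39.1), muscle (24.2 to 26.1 and 24.8 to 26.7) and haemocytes (36.1 to 37.4 and 36.3 to 37.1). The part of glia in the clock loop differences was not tested.

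Genes that serve the degradation of phosphorylated clock proteins had 6 of 6 measured, 4 below the unpulsed mean, a median of -0.071 and 0 past the test. slmb, the ubiquitin ligase component that recognises period once Doubletime has acted on it, was at -0.25 (SE 0.12). SkpA, of the same ligase, was at -0.084 (SE 0.044), and jet, which acts on timeless after light, was at -0.12 (SE 0.062). The mean of jet was 2.97 log2 units, within the range of the array medians.

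**Figure D5:**
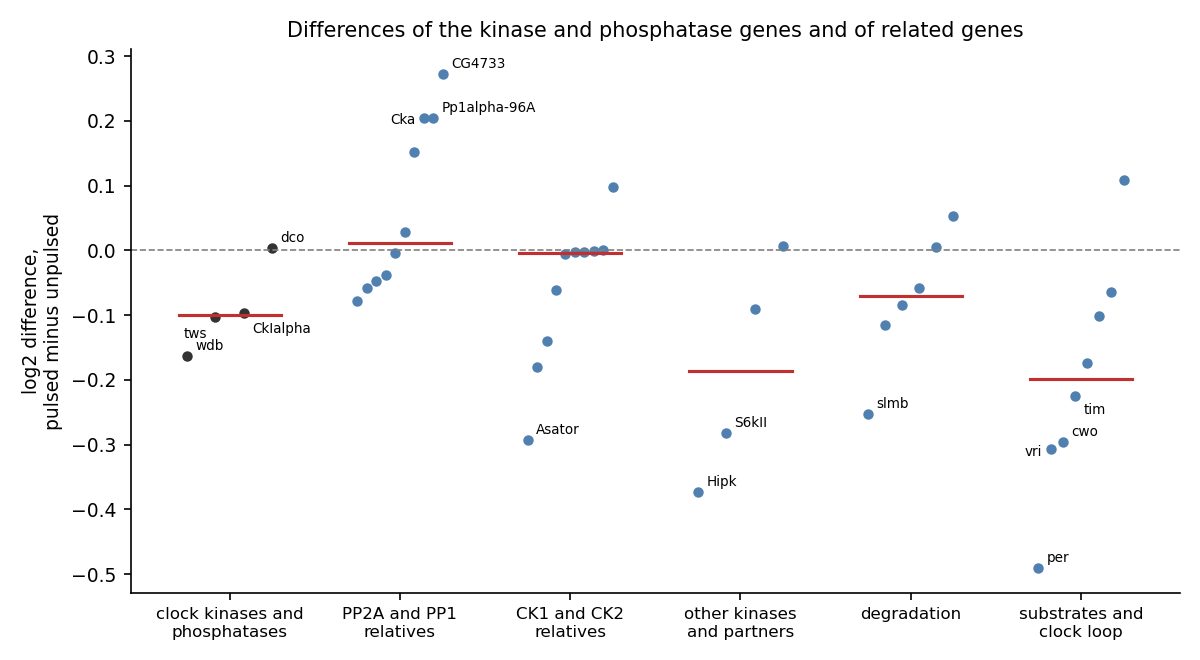
Log2 difference, pulsed minus unpulsed (vertical axis), of each measured gene of 6 lists, 1 point per gene with the list's median as a red line. Named are the 4 kinase and phosphatase genes, between -0.16 and 0.0036, and the related genes beyond 0.2 log2 units, of which per, at -0.49, is the lowest.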

How the data were processed

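RNA from 4 pulsed and 4 unpulsed head samples was hybridised to Affymetrix arrays. The authors deposited a table with a log2 value for each probe set on each array. That they are log2 was inferred from their range, and probe summary, background correction and normalization are not given in the sources used here. The table holds 18952 probe sets, of which 183 controls were left out and 18769 tested.

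Names came from the platform annotation, in which 13647 probe sets have 1 symbol, 402 several and 4903 are not listed. Of the first, 13544 were updated through NCBI RefSeq's gene table (assembly Release 6 plus ISO1 MT), which served for names only. A gene with several probe sets is represented in lists by the one with the highest mean.

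Groups were taken from the labels. All probe sets were fitted with limma 3.58.1 (lmFit, eBayes) in R 4.3.3, with two-sided p-values adjusted over all 18769 by Benjamini-Hochberg, a threshold of 0.05 and no filter on low values. Intervals are limma's 95% intervals. The 2 probe sets of wdb were compared by an exact permutation test. The steps were tested on simulated data.

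The members and lists were chosen with earlier results of these data known. Every member is named, with up to 3 genes of each related list with the smallest unadjusted p, all 8 clock loop genes and, for each member, the gene most like it over the arrays. The alternatives comprised median-centred arrays, quantile normalization, a pseudocount of 16, a filter at the 40th percentile of mean value, a trended and robust spread, array weights, a replicate block, a term for replicates 1 and 2 against 3 and 4, the Yp1 level and the mean 3′ minus 5′ difference of the actin, GAPDH and eIF-4a controls as covariates, an adjusted p of 0.1, and each array left out in turn.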

Additional observations from a re-analysis of the deposited data

Results flagged for a closer look

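An array was called far from the other 3 of its group where its gap to the nearest of them exceeded 0.83 of the group's range, Dixon's 95% critical value for 4 arrays. This held in 7 of 50 groups of arrays. Chance gives about 1 in 20 for independent groups, but these share the same 8 arrays and include genes named for their small p. The rate over all probe sets was not counted, so no excess can be read from the 7. Of the kinase and phosphatase probe sets, 0 of the 10 groups held such an array. Of those 10, the second wdb probe set in pulsed heads came closest, with replicate 1 at 4.82 log2 units and a gap of 0.799 of the range, followed by the brighter one in unpulsed heads, with replicate 2 at 7.84 and a gap of 0.658. Among related genes, unpulsed replicate 3 was low for Pp1alpha-96A, at 9.22 log2 units with the nearest array at 9.73, and for CG4733, at 4.63 with the nearest at 5.24. Unpulsed replicate 4 was low for Hipk, at 8.52 with the nearest at 9.41, and for cwo, at 9.10 with the nearest at 9.52. Pulsed replicate 4 was low for cyc, at 6.78 with the nearest at 6.99, and pulsed replicate 2 was low for Asator, at 8.26 with the nearest at 8.44. Unpulsed replicate 1 was high for slmb, at 7.89 with the nearest at 7.46.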

How the results depend on the processing

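Across 18 refits none of the 5 member probe sets passed, with the exception of wdb with array weights (-0.49, limma adjusted p = 0.0218). In that fit 1 member, 7 related genes and 2936 probe sets in all, or 15.6%, passed. The related lists held 10 phosphatase genes, 10 casein kinase relatives, 4 other kinases and partners, 8 clock loop genes and 6 degradation genes. Whether the 7 exceed the share over all probe sets was not tested. The related genes that passed there were Asator (-0.44), gish (-0.41), S6kII (-0.24), per (-0.37), Pdp1 (-0.34), cyc (-0.27) and cry (0.21). The dco difference turned negative with quantile normalization (-0.0091), median-centred arrays (-0.0095), array weights (-0.025), the Yp1 covariate (-0.036) and the 3′ minus 5′ covariate (-0.037). With the latter CkIalpha was at 0.040, wdb at 0.065, the median of the 4 genes at 0.0018 and that of all probe sets at 0.0065. With array weights the second wdb probe set was at -0.21. The cause of these changes was not tested. Leaving out 1 array at a time gave -0.047 to 0.061 for dco, -0.20 to 0.0047 for tws, -0.18 to -0.027 for CkIalpha, -0.26 to -0.018 for wdb, -0.21 to 0.24 for the second wdb probe set and -0.37 to 0.051 for the difference between the wdb probe sets. The median of the 4 genes ran from -0.17 to -0.018 there, against a spread of 0.18 between arrays. Over all probe sets 1 passed with median-centred arrays, with the filter and with the trended and robust spread, and 2 at an adjusted p of 0.1. With the replicate number as a block 0 probe sets passed. The differences could not move there, since each replicate number holds 1 array of each group. The wdb probe sets gave exact p = 0.875 over 16 arrangements. The smallest p possible there was 0.125, so that test could not have passed 0.05. Same-numbered arrays did not deviate together over all probe sets (correlations of -0.070 to 0.078, and 1 of 8 arrays correlated best with its own number). This cannot exclude that they were collected or handled together.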
